A study of Mus musculus with 6 samples.

Results

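The genes described here are 10 genes of the hypoxia-inducible factor (HIF) pathway of oxygen sensing, taken by their gene symbols. They are the HIF subunits Hif1a and Arnt, the prolyl hydroxylases Egln1, Egln2 and Egln3, the ubiquitin ligase subunit Vhl, and the HIF targets Vegfa, Bnip3, Ddit4 and P4ha1. Each had a single entry among the 13743 entries of the deposited expression table. All 10 were among the 11428 entries that averaged 1 RPKM or more (reads normalized to transcript length and library size), the level set for testing.

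HIF is a dimer of an oxygen-regulated alpha subunit, such as HIF1A, and the constitutive partner ARNT. In the presence of oxygen the EGLN enzymes hydroxylate the alpha subunit, VHL binds the hydroxylated form and directs it to degradation; when oxygen is scarce the alpha subunit accumulates and the dimer switches on genes for angiogenesis, glycolysis, mitophagy and matrix synthesis. Pluripotent stem cells are known for a glycolytic metabolism to which HIF targets contribute, and because the alpha subunit is controlled mainly as a protein, Hif1a mRNA does not report HIF activity.

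RNA was sequenced from mouse embryonic stem cells (ESCs) of a C57/129 background that lack Dgcr8 (Dgcr8-/-), the partner of Drosha in microRNA maturation. All 3 groups share this deletion, so the controls also lack canonical microRNAs. The miR-294 group received a mimic of miR-294, a member of the miR-290 cluster that is abundant in wild-type mouse ESCs, and the siMbd2 group received an siRNA against Mbd2, a reader of methylated CpGs that works in the NuRD repressor complex. The CTR group is called mock in the deposited table, and what its wells received is not stated. Mimic or siRNA was given at 50 nM with a lipid reagent 16 h after plating, and RNA was taken at 48 h after transfection. Each group has 2 libraries. No source used here says whether these were separate cultures or whether the cells are a single clone, so the spread that p-values measure is that between libraries and may be technical.

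Differences are given as changes in log2(RPKM + 1), a scale that understates changes of low genes, with mean RPKM ratios where they help. Calls of higher or lower rest on a limma p that, after Benjamini-Hochberg adjustment over all 11428 entries of a contrast, is under 0.05, and rose and fell refer to these calls. Mbd2 stood at 26.8 and 27.9 RPKM in CTR, 11.3 and 12.3 with miR-294, and 7.33 and 6.34 with siMbd2, so every treated library was below both controls. Dgcr8 mRNA was still measured, at 6.66 to 8.44 RPKM over the 6 libraries, and gene-level values cannot show whether it is intact. ESC markers were high in every library (10 of 10 in the table, summing to 5843 to 7374 RPKM), with Dppa5a the largest. With miR-294 4 of the 10 rose and 3 fell, beside 27.7% higher and 36.8% lower among all tested genes. With siMbd2 5 rose and 2 fell, beside 19.5% and 14.9%. With miR-294 Pou5f1 was at 1059 and 1056 RPKM against 790 and 689 in CTR, and Nanog at 206 and 211 against 354 and 372. The 2 listed feeder fibroblast markers in the table summed to 1.64 and 1.53 RPKM in CTR. They summed to 3.89 and 3.56 with miR-294, and 1.15 and 1.32 with siMbd2. Of these 2, Thy1 rose with miR-294 (0.83, adjusted p = 9.20e-05) and fell with siMbd2 (-0.30, adjusted p = 0.0369), and Col1a1 was at 0.06 to 0.29 RPKM. The 9 differentiation markers in the table summed to 26.6 RPKM in both CTR libraries, 16.2 and 16.0 with miR-294, and 25.8 and 24.8 with siMbd2. Of these 9, Foxa2 was listed at 0 in a CTR library and Sox17 in a siMbd2 library. Members moved apart: with miR-294 Eomes rose (0.84) while Sox1 (-1.12), Pax6 (-1.05), Gata4 (-0.95) and Nes (-0.31) fell, and with siMbd2 Nes rose (0.68) while Sox1 (-0.76) and Gata4 (-0.35) fell. The part of these marker differences in the results on the HIF genes was not tested. In bulk RNA, fewer cells of a type and less RNA per cell cannot be told apart. CTR was the noisiest pair, with a median absolute replicate difference of 0.136 (log2) against 0.063 in miR-294 and 0.060 in siMbd2.

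The sequences that matter for the miR-294 comparison are the seed of the microRNA and the stretches of HIF pathway 3' UTRs that match it. The labels do not name the arm; the 3p arm, the functional strand of this cluster, is shown as RefSeq lists it (chr7:3220691-3220712, plus strand, GRCm38.p6), beside 2 relatives from the same cluster that share its seed. Capitals mark bases 2 to 8, the seed.
mmu-miR-294-3p: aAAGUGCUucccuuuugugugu
mmu-miR-291a-3p: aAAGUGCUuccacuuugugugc
mmu-miR-295-3p: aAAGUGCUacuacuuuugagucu
Outside the seed the 3 sequences differ.

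Matches of 3 kinds were sought in each gene's longest 3' UTR, from GENCODE vM21 on GRCm38: the 8-base AGCACTTA, the 7-base AGCACTT, and the 7-base GCACTTA, which lacks the base opposite seed position 8 but ends in the A opposite base 1. A match was found in 4 of the 10 genes, each with a single site, printed here with 10 bases on either side and the match in capitals.
P4ha1, 8-base, chr10:59372442-59372469, plus strand: ctttggtcctAGCACTTAggaggcagca
Vhl, 7-base, chr6:113630120-113630146, plus strand: cccacgtcccAGCACTTtctctctgtt
Vegfa, 7-base, chr17:46018681-46018707, minus strand: ctcttcgaggAGCACTTtgggtccgga
Arnt, 7-base with A, chr3:95496130-95496156, plus strand: agtctttgctGCACTTAaattcatacc
The P4ha1 site begins at base 1378 of a 2230-base 3' UTR and lies in 1 of 3 annotated P4ha1 3' UTRs. The Vhl site begins at base 561 of 2064, in the only annotated Vhl 3' UTR. The Vegfa site begins at base 161 of 1865 and lies in 3 of 4 annotated Vegfa 3' UTRs, and the Arnt site at base 747 of 1847, in 2 of 5. None of the 3 kinds of match was found in the longest 3' UTRs of Hif1a (1827 bases), Egln1 (2121), Egln2 (498), Egln3 (1643), Bnip3 (1079) and Ddit4 (867). Over the 10806 tested gene symbols with an annotated 3' UTR (94.7% of 11415), 20.9% held any match and 3.68% the 8-base match, the background for the 4 of 10. That background is not matched for length. Its median longest 3' UTR was 1141 bases, against 1847 to 2230 in the 4 genes with a match. A match is a string of letters and not a shown binding site.

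**Figure D1:**
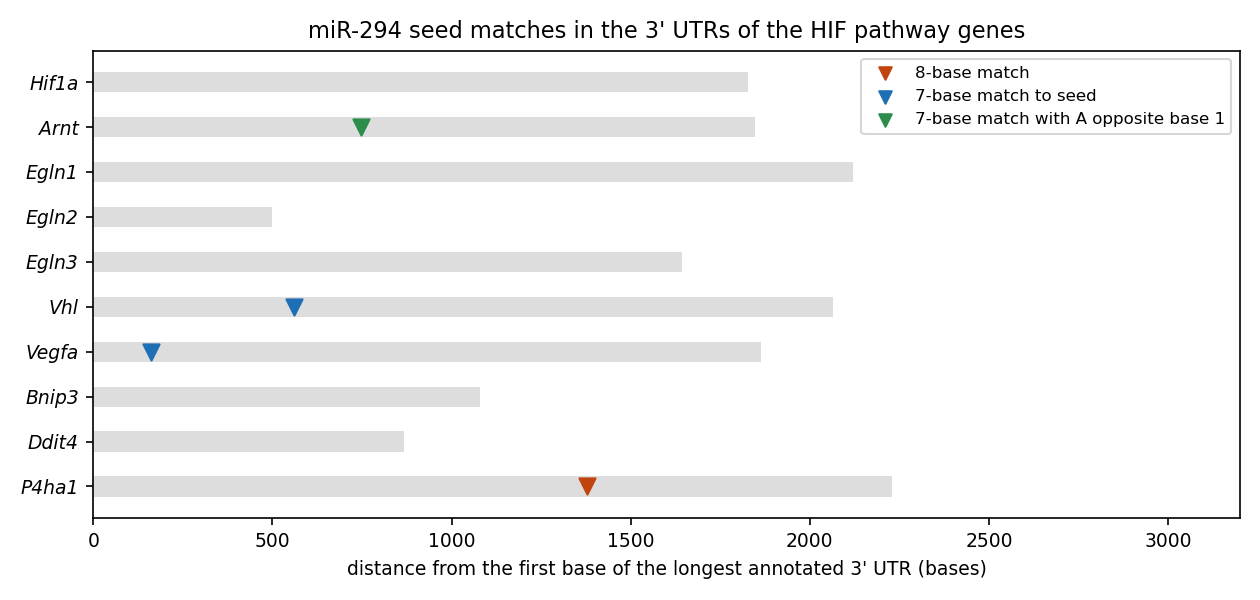
For each of the 10 genes the longest 3' UTR is drawn as a grey bar, with distance from its first base in bases on the horizontal axis, and triangles mark matches to the miR-294 seed by kind. P4ha1 carries the 8-base match at base 1378, Vhl, Vegfa and Arnt carry 7-base matches, and 6 genes have no triangle.

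In CTR cells both HIF subunits and the targets other than P4ha1 were above the oxygen sensors and Vhl, on the length-scaled RPKM scale. Ddit4 led at 45.95 ± 4.75 RPKM (SD, n = 2), followed by Arnt (32.5 ± 2.55), Bnip3 (28.9 ± 1.55), Vegfa (27.5 ± 2.19) and Hif1a (24.8 ± 2.37). Egln2 came next at 20.4 ± 2.14, then P4ha1 (13.7 ± 0.877), Egln3 (12.8 ± 0.106), Vhl (10.6 ± 0.417) and Egln1 (7.81 ± 0.594). The CTR ranges of Bnip3 and Vegfa overlapped, as did those of Vegfa and Hif1a, so the order within these pairs is within their spread. Ddit4 was above 85.8% of the tested genes and Egln1 above 36.7%.

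The order differed in the treated cells at a few places. In miR-294 cells P4ha1 moved from seventh to ninth, at 6.37 ± 0.651 RPKM, with a range that overlapped that of Vhl (6.81 ± 0.0212), and Vegfa moved to second at 32.1 ± 2.02 with a range that overlapped that of Bnip3. In siMbd2 cells Bnip3 was second (36.8 ± 0.962) and Vegfa sixth (20.9 ± 0.735), below Hif1a (23.8 ± 0.0849). Ddit4 stayed first and Egln1 last in all 3 groups.

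**Figure D2:**
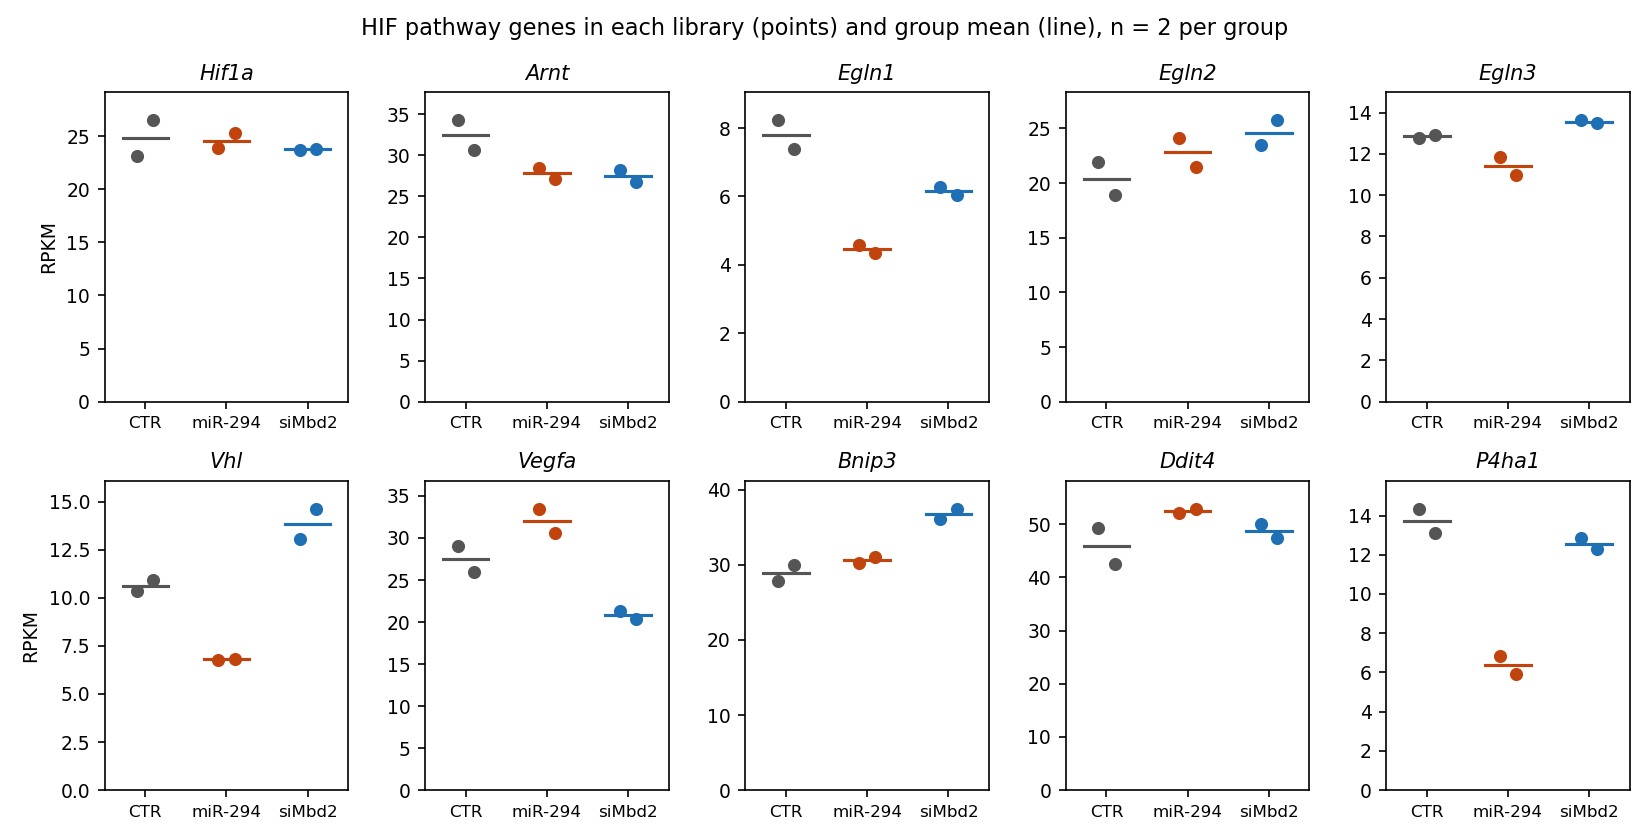
RPKM of each of the 10 genes in every library (points) with the group mean (line), for CTR, miR-294 and siMbd2, 2 libraries each, on axes that start at 0. P4ha1, Egln1 and Vhl are lowest in the miR-294 libraries, Vhl and Bnip3 are highest and Vegfa lowest in the siMbd2 libraries, and the Hif1a points of the 3 groups lie close together.

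Comparing miR-294 with CTR asks how the pathway's mRNAs stand when the microRNA is given back to cells that cannot make it. The collagen prolyl hydroxylase P4ha1, the oxygen sensor Egln1, Vhl and Arnt fell, and Vegfa, the main angiogenic HIF target, rose. Hif1a, Egln2, Egln3, Bnip3 and Ddit4 were not called. Thus 5 of the 10 genes were called, 1 higher and 4 lower, where 64.5% of all tested genes were called, 27.7% higher and 36.8% lower. The median change of the 10 was -0.086, beside -0.077 over all tested genes. In 8 of the 10 the libraries of the groups did not overlap, beside 81.0% of all tested genes. The number of called genes is thus near the background of this contrast. Of all calls 42.9% were higher, a share that was 49.4% after median-of-ratios scaling and 51.3% after quantile normalization. Among the 10 genes the number higher was 3 after median-of-ratios scaling and ranged from 0 (without either miR-294 or either siMbd2 replicate) to 3 (without CTR replicate 1) with a library left out.

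The comparison of siMbd2 with CTR asks how the same mRNAs stand when Mbd2 mRNA is lowered by an siRNA. Vhl and the mitophagy receptor gene Bnip3 rose, and Vegfa, Egln1 and Arnt fell. These 5 calls of 10, 2 higher and 3 lower, compare with 34.4% of all tested genes called, 19.5% higher and 14.9% lower. The median change was 0.007, beside 0.023 over all tested genes, and 8 of the 10 did not overlap between groups, beside 67.6%. Without CTR replicate 1 there were 4 higher and 1 lower calls, and without siMbd2 replicate 2 there were none in either direction. Both contrasts use the same CTR libraries, so their values are not independent of each other.

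The direct comparison of miR-294 with siMbd2 takes no CTR level into the difference and tests the treatments against each other. Vhl, P4ha1, Egln1, Bnip3 and Egln3 were lower in miR-294 cells and Vegfa was higher, which makes 6 of 10 called, beside 57.4% of all tested genes (21.9% higher and 35.5% lower). The median of the 10 was -0.169 against -0.081 over all genes, and 8 of the 10 did not overlap, beside 84.1%. Of all calls in this contrast 38.1% were higher, a share that moved to 47.7% after median-of-ratios scaling and 51.5% after quantile normalization. After either scaling 3 of the 10 genes were lower.

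**Figure D3:**
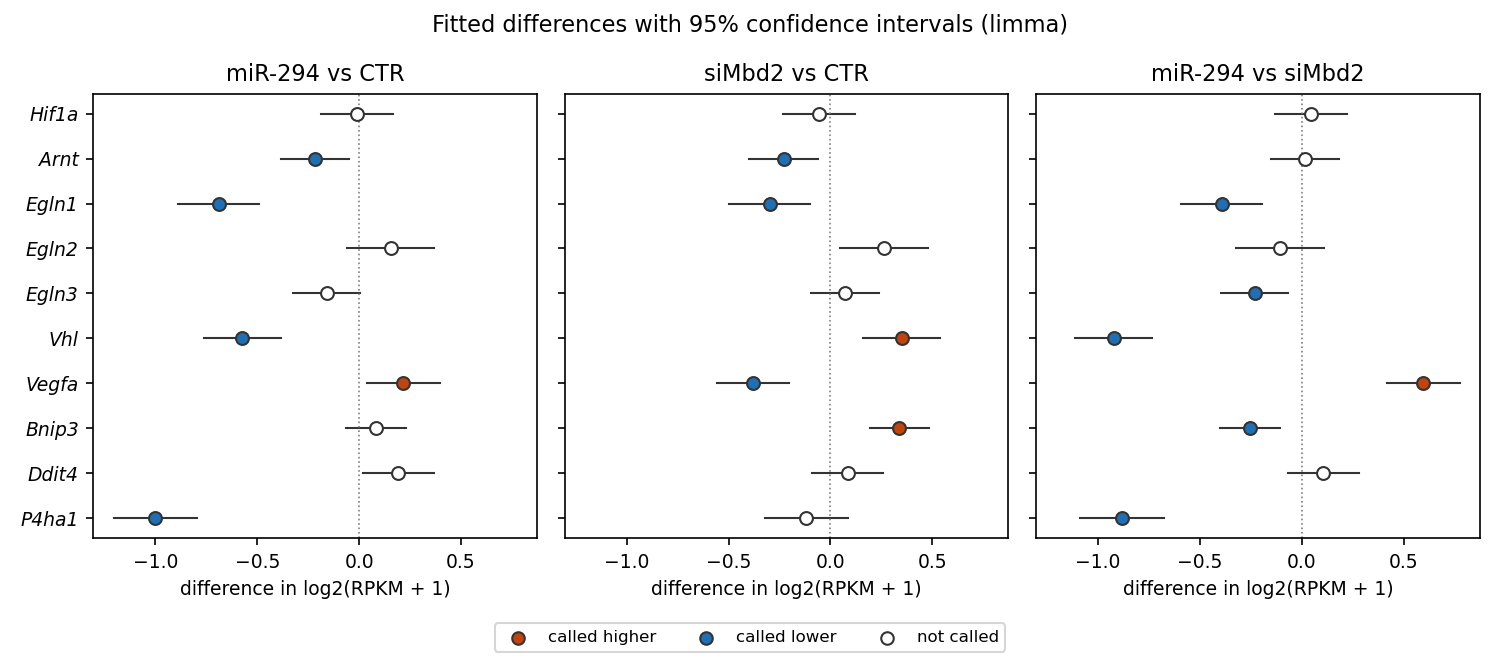
Fitted difference in log2(RPKM + 1) for each of the 10 genes (points) with its 95% confidence interval (lines), with a panel for each treatment against CTR and another for miR-294 against siMbd2. Filled points mark calls at an adjusted p under 0.05, and Vhl and Vegfa lie on opposite sides of 0 in the first 2 panels.

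Hif1a encodes the oxygen-regulated subunit. It was at 23.2 and 26.5 RPKM in CTR, 23.9 and 25.3 with miR-294, and 23.7 and 23.8 with siMbd2. Both CTR values bracket all 4 treated values. Its change was -0.012 with miR-294 (95% confidence interval -0.19 to 0.17, adjusted p = 0.901) and -0.058 with siMbd2 (-0.24 to 0.12, adjusted p = 0.595). The gene (chr12:73901375-73947530, plus strand) is overlapped over 46156 bases by the antisense gene Gm15283. Overlaps are of whole gene spans with introns, and overlap of exons was not examined. No source used here says whether the counting used strand, so whether reads of the pair were told apart is not known. A protein-coding gene on the same strand, Gm49321, overlaps Hif1a over 9878 bases, which strand-aware counting would not resolve either.

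Arnt encodes the constitutive partner of all HIF alpha subunits. It stood at 34.3 and 30.7 RPKM in CTR, 28.4 and 27.2 with miR-294, and 28.3 and 26.7 with siMbd2, so all 4 treated libraries were below both controls while the treated groups overlapped each other. Arnt fell with miR-294 (log2 change -0.22, SE 0.073, adjusted p = 0.0296) and with siMbd2 (-0.23, adjusted p = 0.0407). The miR-294 call was lost on leaving out CTR replicate 1 (-0.14, adjusted p = 0.0741), either miR-294 replicate or either siMbd2 replicate, and by median-of-ratios scaling or a fit of these 2 groups alone. The siMbd2 call was lost in 7 of 15 alternatives, among them without CTR replicate 1 (-0.15, adjusted p = 0.0698), without either siMbd2 replicate and without either miR-294 replicate.

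Among the prolyl hydroxylases, Egln1 encodes PHD2, the main oxygen sensor for HIF1A under ordinary oxygen. It measured 8.23 and 7.39 RPKM in CTR, 4.57 and 4.34 with miR-294, and 6.29 and 6.03 with siMbd2. The 3 groups did not overlap, with miR-294 lowest and siMbd2 between it and CTR. With miR-294 it fell to 0.57 of the CTR mean (log2 change -0.69, SE 0.087, adjusted p = 1.81e-04), and this call held in all 15 alternatives. With siMbd2 it fell to 0.789 of CTR (log2 change -0.30, adjusted p = 0.0300), a call lost in 6 of 15 alternatives, namely the fit of 2 groups alone and leaving out CTR replicate 1 (-0.23, adjusted p = 0.0586), either miR-294 replicate or either siMbd2 replicate. Egln1 was lower with miR-294 than with siMbd2 (log2 difference -0.39, adjusted p = 0.0049), a call lost after quantile normalization (-0.19, adjusted p = 0.0741). As given above, its longest 3' UTR holds no seed match.

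Egln2 encodes PHD1, a nuclear member of the family. Its values were 21.9 and 18.9 RPKM in CTR, 24.2 and 21.4 with miR-294, and 23.5 and 25.8 with siMbd2. The miR-294 values overlapped those of both other groups, and the siMbd2 values were above both controls. Neither difference from CTR was called (0.16, interval -0.058 to 0.37, adjusted p = 0.174 with miR-294; 0.26, interval 0.049 to 0.48, adjusted p = 0.0589 with siMbd2). Without CTR replicate 1 both were called, at 0.26 (adjusted p = 0.0317) and 0.37 (adjusted p = 0.0127).

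Egln3 encodes PHD3, which is itself a HIF target in many cells. It was at 12.8 and 12.9 RPKM in CTR, 11.83 and 10.98 with miR-294, and 13.6 and 13.5 with siMbd2, so the miR-294 libraries were the lowest and the siMbd2 libraries the highest by narrow margins. Neither difference from CTR was called (-0.16 with miR-294, adjusted p = 0.0831, and 0.072 with siMbd2, adjusted p = 0.470). It was lower with miR-294 than with siMbd2 by 0.23 (adjusted p = 0.0237), a call lost in 6 of 15 alternatives: after either rescaling (-0.16 and -0.061) and without any 1 of the 4 libraries compared, between -0.28 and -0.18.

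The 3 Egln transcripts gave sums that lay close together, whereas their shares of the sum differed between groups. The sum was 42.9 and 39.2 RPKM in CTR, 40.6 and 36.8 with miR-294, and 43.4 and 45.3 with siMbd2, with CTR and miR-294 overlapping. Egln1 made up 19.2% and 18.9% of the sum in CTR, 11.3% and 11.8% with miR-294, and 14.5% and 13.3% with siMbd2. Egln2 made up 51.0% and 48.2% in CTR, 59.6% and 58.3% with miR-294, and 54.1% and 56.9% with siMbd2. The shares of Egln1 and Egln2 did not overlap between any of the groups, while those of Egln3, from 29.2% to 33.0%, did. For 2 libraries against 2 the smallest p of an exact permutation test is 0.333, so the shares are given without a test.

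**Figure D4:**
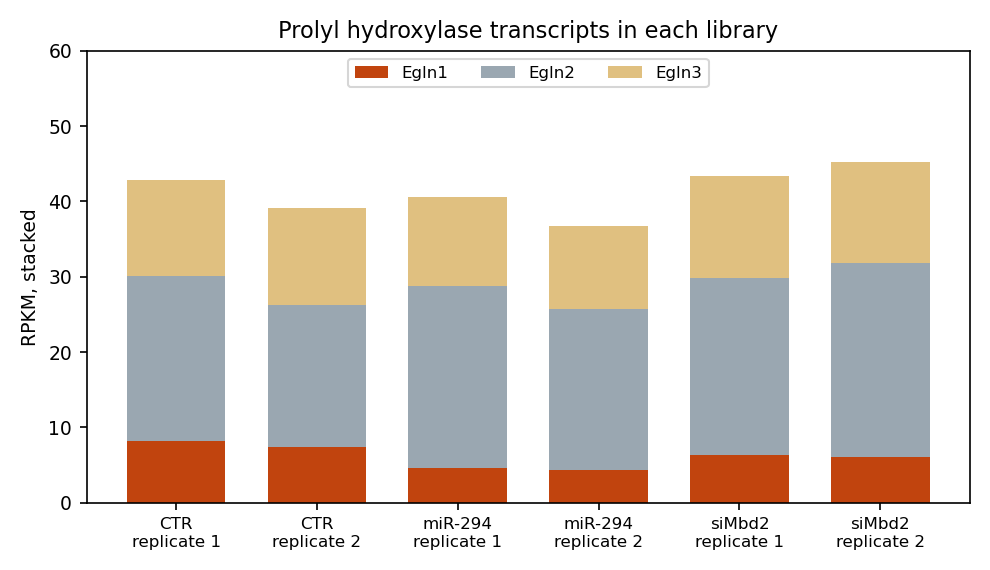
RPKM of Egln1, Egln2 and Egln3 stacked for each of the 6 libraries, with RPKM on the vertical axis from 0. The Egln1 segment is tallest in the CTR libraries (8.23 and 7.39) and shortest in the miR-294 libraries (4.57 and 4.34), while the whole column ranges from 36.8 to 45.3.

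Vhl encodes the subunit that recognises hydroxylated HIF alpha in the cullin 2 ubiquitin ligase. It measured 10.3 and 10.9 RPKM in CTR, 6.79 and 6.82 with miR-294, and 13.0 and 14.6 with siMbd2. No groups overlapped: the miR-294 libraries lay below both controls and the siMbd2 libraries above both. With miR-294 it fell to 0.64 of the CTR mean (log2 change -0.57, SE 0.083, adjusted p = 3.79e-04), in all 15 alternatives. With siMbd2 it rose to 1.3 times CTR (log2 change 0.35, SE 0.083, adjusted p = 0.0134), a call lost without siMbd2 replicate 2 (0.27, adjusted p = 0.142). The direct difference between the treatments was -0.92 (interval -1.11 to -0.74, adjusted p = 4.81e-05), and was called in all 15 alternatives; 4.86% of tested genes had a lower difference.

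Of the targets, P4ha1 encodes the catalytic subunit of a collagen prolyl 4-hydroxylase. Its values were 14.4 and 13.1 RPKM in CTR, 6.83 and 5.91 with miR-294, and 12.9 and 12.3 with siMbd2. The miR-294 libraries were far below the other 4, and the siMbd2 libraries lay just under the controls. With miR-294 it fell to 0.464 of the CTR mean (log2 change -1.001, SE 0.090, adjusted p = 3.06e-05), and 5.39% of tested genes had a lower change. With siMbd2 it was not called (-0.12, interval -0.32 to 0.088, adjusted p = 0.340). The treatments differed by -0.88 (SE 0.090, adjusted p = 8.75e-05), and both calls held in all 15 alternatives.

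Vegfa encodes vascular endothelial growth factor A, the secreted ligand that drives blood vessel growth. It stood at 29.0 and 25.9 RPKM in CTR, 33.5 and 30.6 with miR-294, and 21.4 and 20.3 with siMbd2. The miR-294 libraries were above and the siMbd2 libraries below both controls. It rose with miR-294 to 1.17 times CTR (log2 change 0.22, SE 0.078, adjusted p = 0.0368), a call lost in 7 of 15 alternatives: with no intensity trend, with 2 groups alone, and without CTR replicate 2 (0.14, adjusted p = 0.109), either miR-294 replicate or either siMbd2 replicate. It fell with siMbd2 to 0.759 of CTR (log2 change -0.38, SE 0.078, adjusted p = 0.00753), a call lost without siMbd2 replicate 2 (-0.35, adjusted p = 0.0756). Vegfa was 1.54 times as high with miR-294 as with siMbd2 (log2 difference 0.60, interval 0.42 to 0.78, adjusted p = 3.15e-04), above 95.1% of tested genes and called in all 15 alternatives. Its 7-base seed match thus stands in a transcript that did not fall with miR-294.

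Bnip3 encodes a mitochondrial outer membrane protein that promotes mitophagy. It measured 27.8 and 30.0 RPKM in CTR, 30.3 and 31.1 with miR-294, and 36.1 and 37.5 with siMbd2, so the siMbd2 libraries were above the other 4. With siMbd2 it rose to 1.27 times CTR (log2 change 0.34, SE 0.064, adjusted p = 0.00534), a call lost without siMbd2 replicate 2 (0.31, adjusted p = 0.0680). With miR-294 it was not called (0.084, interval -0.063 to 0.23, adjusted p = 0.277), although it was without CTR replicate 2 (0.14, adjusted p = 0.0483). It was lower with miR-294 than with siMbd2 (log2 difference -0.26, adjusted p = 0.00902), a call lost after median-of-ratios scaling (-0.18, adjusted p = 0.0608), without miR-294 replicate 1 (-0.24) and without siMbd2 replicate 2 (-0.23). Bnip3 is overlapped by the antisense gene Gm45507 over 3712 bases, so the limit given for Hif1a holds here too.

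Ddit4 encodes REDD1, a stress-induced inhibitor of mTORC1 signalling. It was at 49.3 and 42.6 RPKM in CTR, 52.0 and 52.9 with miR-294, and 50.1 and 47.3 with siMbd2. The miR-294 libraries were above the other 4, but the controls differed by more from each other than the group means did. The difference from CTR was 0.19 with miR-294 (interval 0.017 to 0.37, adjusted p = 0.0543) and 0.085 with siMbd2 (-0.090 to 0.26, adjusted p = 0.417), neither called. Without CTR replicate 1 both were called, at 0.30 (adjusted p = 0.00173) and 0.19 (adjusted p = 0.0211).

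Set against the seed matches, the 4 genes that fell with miR-294 were P4ha1, with the 8-base match, Vhl and Arnt, with 7-base matches, and Egln1, with none. Over all tested genes 61.1% of the 398 with an 8-base match were lower with miR-294 than in CTR, 49.2% of the 1504 with AGCACTT and 48.6% of the 358 with GCACTTA. Among the 8546 genes without a match 33.4% were lower. These classes were not matched for 3' UTR length. In siMbd2 vs CTR the shares called lower were 16.3%, 16.7%, 15.1% and 14.8%. Vegfa was among the 16.7% of genes with AGCACTT that were called higher with miR-294.

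Promoters were searched for the core letters of the hypoxia response element, ACGTG and GCGTG, on both strands, in RefSeq windows of 300 bases that lie mostly upstream of each start (GRCm38.p6). Matches on opposite strands that share letters were counted separately. Letters outside these windows were not sought, so a window without a match does not show that a gene lacks the element. Of all 32851 promoter windows 43.8% held a match and 8.93% held 3 or more. These windows also cover genes that were not tested here, unlike the background used for the seed matches. Among the targets, the Bnip3 window held 5 matches, P4ha1 3 and Ddit4 2. Vegfa has 2 windows, of which the first held none and the second, at an internal start, held 2. Egln2 held 6 in its first window and 1 in its second, Hif1a 3, Egln1 2, Arnt and Egln3 1 each, and Vhl none. One match from each target is printed in capitals, in its gene's direction. The letters are a core that HIF is known to bind, and binding at these places was not tested.
Bnip3, chr7:138909597-138909625, minus strand: cgcacgcgccgcACGTGccacacgctccc
P4ha1, chr10:59323158-59323186, plus strand: cactgcgtcctcGCGTGggccagcctagg
Ddit4, chr10:59951941-59951969, minus strand: agaacgttgcgaACGTGcgcccggtgcct
Vegfa, second window, chr17:46025358-46025386, minus strand: ggagtgcgtgccCACGTcagagagcaaca
The Vegfa letters are the reverse complement of ACGTG. These 4 targets did not move together: in siMbd2 cells Bnip3 rose and Vegfa fell, and in miR-294 cells P4ha1 fell and Vegfa rose.

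A wider list of 72 HIF genes held the other subunits and coactivators, other genes of sensing and degradation, and further targets. Of the 72, 70 were in the table and 61 were tested. With miR-294 24 rose, 15 fell and 22 were not called (median 0.099), with siMbd2 18 rose, 4 fell and 39 were not called (median 0.12), and between the treatments 16 were higher and 19 lower with miR-294 (median -0.033). These shares compare with the all-gene shares and medians given for each contrast. After median-of-ratios scaling the first counts were 29 and 10, beside 3684 higher and 3780 lower of all 11428 entries. Leaving out a library changed the number of calls both in this list and over all tested genes, which bears on such counts of the lists below. Without miR-294 replicate 1 the miR-294 median was 0.07, beside -0.085 over all tested genes. The siMbd2 median was 0.181 without CTR replicate 1, 0.145 without siMbd2 replicate 1 and 0.114 without siMbd2 replicate 2. The all-gene medians of those fits were 0.048, 0.019 and 0.026. Another 9 genes, among them Car9, Adm and Cxcr4, were under the minimum mean, and Epo and Lox were not analysed here.

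Among the other subunits and coactivators, 2 of 6 rose and 2 fell with miR-294, and 2 fell with siMbd2. The all-gene shares were 27.7% higher and 36.8% lower with miR-294, and 14.9% lower with siMbd2. The 2 that rose, Epas1 (HIF2A) and Hif3a, were not called without either miR-294 replicate or either siMbd2 replicate. Arnt2, a close relative of Arnt, was at 4.47 and 4.17 RPKM in CTR, 1.86 and 1.63 with miR-294, and 3.93 and 4.06 with siMbd2. Its change was -0.95 with miR-294 (adjusted p = 4.02e-05) and was not called with siMbd2. Cited2, a competitor of HIF for the coactivators CBP and p300, was at 36.5 and 37.8 RPKM in CTR, 23.3 and 23.4 with miR-294, and 25.8 and 26.7 with siMbd2, and fell in both contrasts (-0.65 and -0.48). Hif3a, an alpha subunit with inhibitory isoforms, was near the minimum level, at 1.3 and 1.2 RPKM in CTR, 1.75 and 1.56 with miR-294, and 0.74 and 0.76 with siMbd2. Its difference between the treatments was 0.60 (adjusted p = 7.00e-04). Its fall with siMbd2 (-0.36) was lost without either siMbd2 replicate, at adjusted p = 0.0885 and 0.0871.

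The other genes of HIF sensing and degradation moved in both directions with miR-294: 4 of 8 rose and 3 fell. Over all tested genes 27.7% were called higher and 36.8% lower with miR-294, and 34.4% in either direction with siMbd2. Hif1an, which encodes FIH, the asparagine hydroxylase that blocks HIF transactivation, was at 25.8 and 25.0 RPKM in CTR, 17.01 and 16.19 with miR-294, and 27.6 and 29.4 with siMbd2. Os9, whose product binds HIF1A and its hydroxylases, was at 16.1 and 13.5 in CTR, 5.16 and 4.70 with miR-294, and 14.4 and 14.3 with siMbd2. Both fell with miR-294, by 0.58 (adjusted p = 1.04e-04) and 1.41 (adjusted p = 8.78e-06). Of the ligase subunits that work with VHL, Tceb2 (elongin B) and Rbx1 rose by 0.50 and 0.34, and Cul2 and Tceb1 (elongin C) by 0.22 and 0.21. The Cul2 and Tceb1 calls were lost in 6 and 8 of 15 alternatives, and after quantile normalization Tceb1 was at -0.004. With the fit of 2 groups alone, or without any 1 of the 4 miR-294 and siMbd2 libraries, 2 rose and 2 fell. With siMbd2 limma called 0 of these 8 (3 at an unadjusted p under 0.05), and 2 rose and 2 fell without CTR replicate 1.

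Hif1an, Os9 and Arnt2 carry the 8-base match in their longest 3' UTR, which is why their sites are shown with the match in capitals.
Hif1an, chr19:44576230-44576257, plus strand: gtgcctggcaAGCACTTAataaacggct
Os9, chr10:127095969-127095996, minus strand: ccaacttcttAGCACTTAaccccactct
Arnt2, chr7:84246439-84246466, minus strand: aagaacagcaAGCACTTActcgtctctc
The same letters stand in Hif3a and in Loxl2, a lysyl oxidase relative. Hif3a was called higher with miR-294 (0.24, adjusted p = 0.0472), a call lost in 10 alternatives, among them without CTR replicate 1, CTR replicate 2, either miR-294 replicate and either siMbd2 replicate. Loxl2 was not called (-0.13, adjusted p = 0.239). Thus 3 of the 5 genes of this list with an 8-base match fell with miR-294, beside 61.1% of all such genes.

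The wider list held 20 HIF targets of glucose metabolism. With siMbd2 11 rose, 1 fell and 8 were not called (median 0.29), beside 19.5% higher, 14.9% lower and a median of 0.023 over all tested genes. With miR-294 9 rose, 2 fell and 9 were not called (median 0.16), beside 27.7% higher, 36.8% lower and a median of -0.077. After quantile normalization the miR-294 counts were 9 and 6, beside 3648 higher and 3469 lower of all 11428 entries. Without miR-294 replicate 1 the miR-294 median was 0.195, beside -0.085 over all tested genes. Without siMbd2 replicate 2 the siMbd2 median was 0.3, beside 0.026. Both of these fits gave fewer calls, in the list and over all tested genes. Slc16a3, the lactate exporter MCT4, was at 22.0 and 18.5 RPKM in CTR, 34.8 and 35.4 with miR-294, and 54.3 and 52.5 with siMbd2, and rose in both (0.77 and 1.36). Aldoa, a glycolytic aldolase, was at 472 and 415 RPKM in CTR, 855 and 846 with miR-294, and 655 and 626 with siMbd2, and rose in both (0.94 and 0.53). Slc2a3, a glucose transporter, went the other way, at 268 and 253 RPKM in CTR, 216 and 221 with miR-294, and 174 and 168 with siMbd2 (-0.25 and -0.60). Gys1, a glycogen synthase, rose with miR-294 (0.79) and was not called with siMbd2 (0.087). Pfkl and Ldha rose in both contrasts, by 0.361 and 0.285 with miR-294 and by 0.76 and 0.58 with siMbd2. The miR-294 call of Ldha was lost after quantile normalization (0.053), and that of Pfkl without miR-294 replicate 1 (0.343).

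Among 15 other targets 4 rose and 7 fell with miR-294, beside 27.7% higher and 36.8% lower among all tested genes. With siMbd2 5 rose and 0 fell by limma, beside 19.5% and 14.9%. Of the 10 others, 0 were lower at an unadjusted p under 0.05. Hmox1, the haem-degrading oxygenase, was at 34.1 and 33.7 RPKM in CTR, 137 and 136 with miR-294, and 59.2 and 66.8 with siMbd2. It was higher in every treated library, by 1.97 with miR-294 (adjusted p = 8.21e-07) and 0.87 with siMbd2 (adjusted p = 2.15e-04). Bhlhe40, a transcriptional repressor, was at 19.1 and 18.8 RPKM in CTR, 5.70 and 5.06 with miR-294, and 20.04 and 20.26 with siMbd2. It fell by 1.65 with miR-294 (adjusted p = 2.11e-06), was not called with siMbd2, and differed by -1.73 between the treatments. Mxi1, a MAX partner that opposes MYC, fell with miR-294 (-0.67). The counts with miR-294 were 5 and 4 after median-of-ratios scaling, 3 and 4 without miR-294 replicate 1 and 2 and 6 without miR-294 replicate 2. With siMbd2, 2 rose and 0 fell without either siMbd2 replicate, 6 rose and 1 fell without CTR replicate 1, and 4 rose and 1 fell after quantile normalization.

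Of 5 tested collagen and matrix enzymes, 2 rose and 1 fell with miR-294, beside 27.7% higher and 36.8% lower among all tested genes. P4ha2, the alternative catalytic subunit to P4ha1, was at 4.83 and 5.16 RPKM in CTR, 6.98 and 7.13 with miR-294, and 4.64 and 4.11 with siMbd2. It rose with miR-294 (0.43, adjusted p = 0.0029), where P4ha1 fell. P4hb, the beta subunit shared by both enzymes, was not called (0.087). Plod1, a lysyl hydroxylase, rose with miR-294 (0.78, adjusted p = 2.00e-04). It also rose with siMbd2 (0.351, adjusted p = 0.0273), a call lost in 4 of 15 alternatives. Plod2 fell with miR-294 (-0.26), a call lost after either rescaling and without miR-294 replicate 1 (-0.19). The secreted factor Stc2 was above its siMbd2 level with miR-294 (0.69), and Fam162a, a mitochondrial protein of hypoxic cell death, fell with siMbd2 (-0.29), a call lost without either siMbd2 replicate.

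**Figure D5:**
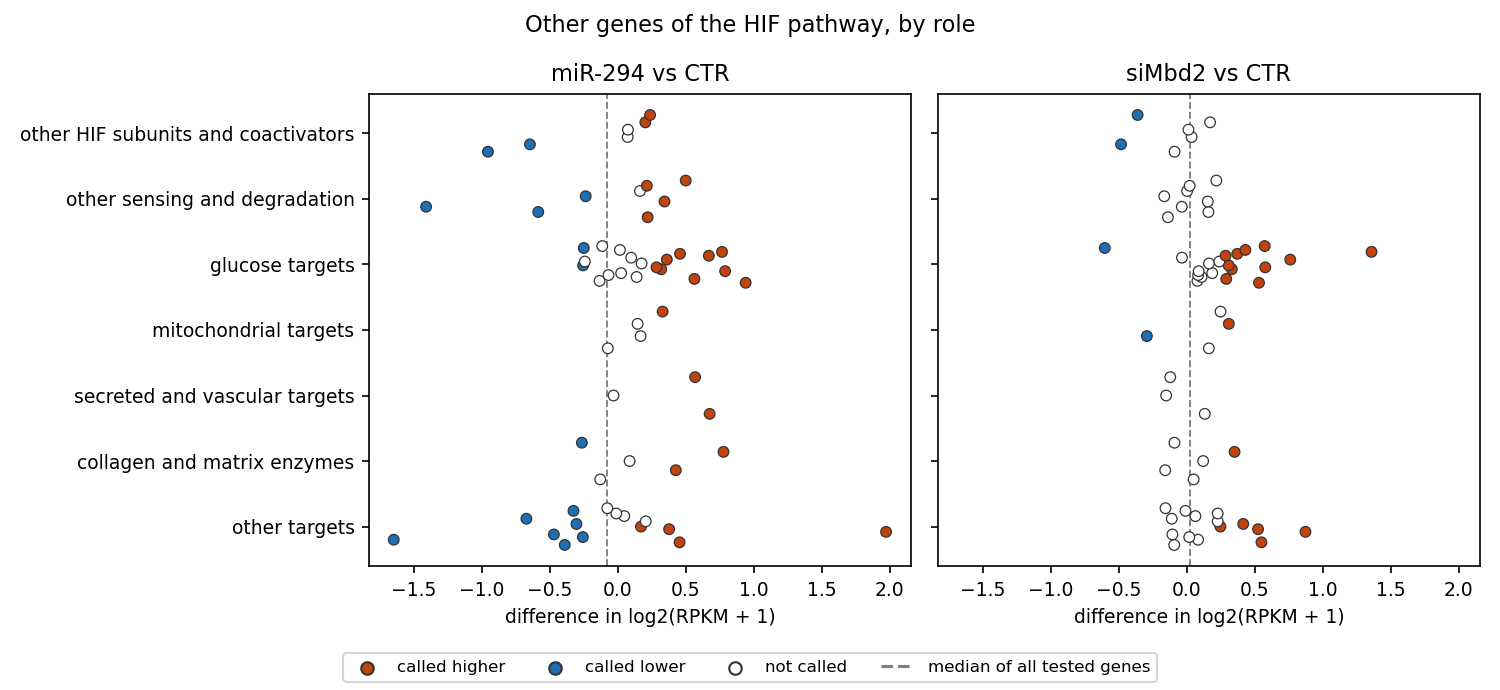
Differences in log2(RPKM + 1) of the 61 tested genes of the wider HIF list, grouped by role, for miR-294 vs CTR and siMbd2 vs CTR, with filled points for calls and a dashed line at the median of all tested genes. In the glucose targets most filled points lie to the right of 0 in both panels (9 of 11 and 11 of 12), and Hmox1 and Bhlhe40 are the far points in the bottom line of the first panel.

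The VEGF ligands and receptors beside Vegfa were few in these cells: of 9 listed genes 8 were in the table and 4 were tested. Vegfc rose with miR-294 (0.43, adjusted p = 0.00456) and Vegfb fell (-0.40, adjusted p = 0.00229), while Flt4 was not called. Nrp2, a co-receptor for VEGF and semaphorins, was at 9.26 and 10.49 RPKM in CTR, 8.89 and 8.85 with miR-294, and 23.4 and 24.9 with siMbd2. It rose with siMbd2 by 1.21 (adjusted p = 1.24e-04), where Vegfa fell, and differed by -1.35 between the treatments. The receptors Flt1 and Kdr were under the minimum mean, and Nrp1 was not analysed here.

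Of 11 genes of mTORC1 and its restraint, the branch on which Ddit4 acts, 6 rose and 1 fell with miR-294, beside 27.7% higher and 36.8% lower among all tested genes. With siMbd2 2 rose and 2 fell, beside 19.5% and 14.9%. Ddit4l, the relative of Ddit4, was at 4.38 and 4.92 RPKM in CTR, 8.77 and 9.13 with miR-294, and 4.23 and 7.07 with siMbd2, and rose with miR-294 (0.82, adjusted p = 0.00339). The siMbd2 libraries of Ddit4l differed widely from each other. Akt1s1, an mTORC1 inhibitor known as PRAS40, rose with miR-294 by 0.99 (adjusted p = 1.65e-04). The sestrins diverged: Sesn2 rose in both contrasts (0.34 and 0.60), and Sesn3 fell with miR-294 (-0.83) and with siMbd2 (-0.26). The last call was lost in 7 alternatives, among them without CTR replicate 1 or any miR-294 or siMbd2 replicate. Tsc2 rose in both (0.32 and 0.31) and Rheb, the mTORC1 activator, fell with siMbd2 (-0.32). The miR-294 call of Tsc2 was lost without miR-294 replicate 1 (0.27, adjusted p = 0.0859). The siMbd2 calls of Tsc2 and Rheb were lost without either siMbd2 replicate and, for Tsc2, without CTR replicate 2 (0.20). The miR-294 counts were 3 and 1 without miR-294 replicate 1, 5 and 2 without CTR replicate 1, and 5 and 3 without CTR replicate 2. The siMbd2 counts ranged from 1 to 3 higher and from 0 to 3 lower with a library left out.

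The genes with the profile most like each of the 10 were sought among the 8397 tested genes that averaged 5 RPKM or more, by the root mean square difference of centred log2 values over the 6 libraries. Closest to P4ha1 were Rufy3 (0.035), D930015E06Rik (0.036) and Map4 (0.039), against a spread of 0.451 in the P4ha1 profile itself. Closest to Vhl were Lactb (0.036), Tbc1d9 (0.043) and Coq10b (0.054), with a spread of 0.384. Closest to Egln1 were Numa1 (0.025), Amotl1 (0.030) and Khnyn (0.030), with a spread of 0.286, and to Vegfa were Anp32e (0.047), Fastkd1 (0.051) and Mknk1 (0.056), with a spread of 0.254. For Bnip3 they were 1810013L24Rik, Kdm2a and Ube2q1, for Arnt Hjurp, Araf and Nup88, and for Hif1a Ppwd1, Tgs1 and Hsf2. For Egln2 they were Zkscan17, Zfp142 and Bid, for Egln3 Dlc1, Mapk8 and Gins1, and for Ddit4 Zscan25, Trappc5 and Rpa2. None of these nearest genes was another of the 10. The 6 points of each profile share libraries and the closeness is a description.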

How the data were processed

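The deposited table holds RPKM values per gene and library to 2 decimals, and 2 lanes were averaged for each sample, per the labels. The submitters' processing notes name CASAVA 1.7, STAR 2.3.0, Cufflinks and the mm10 build, without roles; strandedness, annotation and read depth were not found there, so no counting error can be given. The authors' deposited fold ratios over CTR equalled the recomputed ratios of mean RPKM to 2 decimals for the 10 genes. Values were analysed as log2(RPKM + 1) in limma 3.58.1 (R 4.3.3), tested on simulated data, with an intensity trend and 1 fit of 3 groups of 2 libraries (3 residual and 5.38 prior degrees of freedom, two-sided). Entries under a mean of 1 RPKM were left out. Site searches used Python 3.11.15 and pandas 2.3.3, plots matplotlib 3.10.9. The 10 genes and the gene lists were chosen with earlier results of these data known. Beside the 10, Mbd2, Dgcr8 and the 3 nearest profiles, genes named were the up to 4 highest and 4 lowest calls without overlap per list and contrast. P4ha2, P4hb, Plod2, the ligase subunits, Loxl2 and other genes outside this rule were named after their values were seen. Alternatives were 2 pseudocounts, 2 filters, 2 scalings, a replicate block, no trend, 2 groups alone and leaving out each library.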

Additional observations from a re-analysis of the deposited data

How the results depend on the processing

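The 30 differences of the 10 genes were recomputed under 15 alternatives, 450 values in all. Of these, 391 kept their direction and side of the threshold, 40 lost a call, 11 gained a call and 8 changed sign, none of them called. The sign changes were Hif1a in miR-294 vs CTR (0.055 after median-of-ratios scaling, 0.023 after quantile normalization, 0.082 without CTR replicate 2, 0.028 without miR-294 replicate 1) and in siMbd2 vs CTR (0.036 without CTR replicate 2), Ddit4 in siMbd2 vs CTR (-0.018 without CTR replicate 2), and Arnt in miR-294 vs siMbd2 (-0.017 without miR-294 replicate 1, -0.024 without siMbd2 replicate 2). The cause was not tested. With a library left out these 4 ranged from -0.105 to 0.082, -0.151 to 0.036, -0.018 to 0.189 and -0.024 to 0.053. Genes of the 10 called higher in miR-294 vs CTR went from 1 to 3 with median-of-ratios scaling, 0 with no trend, 0 with only the 2 groups compared, and 0 to 3 with a library left out. Those higher in miR-294 vs siMbd2 numbered 2 with median-of-ratios scaling, and those lower there numbered 3 with either scaling and 3 to 5 with a library left out. In siMbd2 vs CTR those higher ranged from 0 to 4 and those lower from 0 to 3 with a library left out, and those lower numbered 1 with only the 2 groups compared. All genes called in siMbd2 vs CTR ranged from 1410 (without siMbd2 replicate 2) to 5402 (without CTR replicate 1), with fewer libraries in each fit. A left-out library leaves 1 in its group, assumed to vary like the others. Quantile normalization moved the median of all genes in miR-294 vs siMbd2 from -0.081 to 0.025.

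The replicate numbers are shared names: replicate differences correlated at 0.119, 0.132 and 0.022 between groups over genes. With the replicate block 2 of the 10 were called higher in miR-294 vs CTR, Ddit4 being added (0.19, adjusted p = 0.0364), and Egln2 was called in siMbd2 vs CTR (0.26, adjusted p = 0.0480). RPKM without counts limits what depth can say: errors of low genes such as Hif3a are unknown.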

Other observations

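Some HIF genes below the minimum mean differed in the listed RPKM between groups. They were outside the main fit and entered only the alternative with no filter on low values. Those shown were chosen after their values were seen, and not all such genes are shown. Car12, a membrane carbonic anhydrase, was at 1.34 and 1.14 RPKM in CTR, 0.24 and 0.21 with miR-294, and 0.34 and 0.45 with siMbd2. All 4 treated libraries were thus below both controls. Among tested genes, 81.0% did not overlap between miR-294 and CTR and 67.6% between siMbd2 and CTR, in either direction. Ndufa4l2, a mitochondrial target, was at 0.42 and 0.46 RPKM in CTR, 1.03 and 1.33 with miR-294, and 0.58 and 0.57 with siMbd2. Edn1, the endothelin 1 precursor, was at 0.40 and 0.60 RPKM in CTR, 0.53 and 0.57 with miR-294, and 1.15 and 1.29 with siMbd2. P4ha3, the third catalytic subunit of collagen prolyl 4-hydroxylase, was at 0.58 and 0.44 RPKM in CTR, 0.13 and 0.11 with miR-294, and 0.33 and 0.27 with siMbd2. At these levels the reads behind each value are unknown.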
